A study of Mus musculus with 6 samples.

Results

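Aminoacyl-tRNA synthetases are the enzymes that join each amino acid to its transfer RNA, the step that fixes which amino acid a codon is read as. Most amino acids have a cytosolic enzyme, which serves the ribosomes of the cytoplasm, and a separate mitochondrial enzyme, which is made from another nuclear gene, imported into the organelle and used to translate the few proteins of the respiratory chain that mitochondrial DNA encodes. The enzymes fall into class I and class II by the fold of their catalytic domain, and several cytosolic ones sit together in a multisynthetase complex held by the scaffold proteins Aimp1, Aimp2 and Eef1e1. Many cytosolic synthetase genes are known targets of the transcription factor Atf4, which is translated when amino acids run short.

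The members were the genes whose single symbol in the platform's probe annotation is that of a cytosolic or mitochondrial synthetase. There were 35 members among 13146 genes in the deposited data, 19 cytosolic and 16 mitochondrial, the latter with symbols that end in 2. Each gene was read from its brightest probe set over the arrays. Some symbols cover more than one compartment: Kars and Gars each give rise to a cytosolic and a mitochondrial enzyme, and Eprs joins glutamyl and prolyl activities, whose mitochondrial counterparts are Ears2 and Pars2. Farsa and Farsb encode the subunits of the cytosolic phenylalanine enzyme. The aspartate enzymes were not analysed here.

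Expression was measured on Affymetrix Mouse430_2 arrays in sorted Lin-/Sca1-/cKit+ cells, the fraction that holds committed myeloid progenitors, with 200 ng of total RNA per array. In the wild-type group (3 arrays) the cells came from the bone marrow of wild-type MF1 mice. In the leukemia group (3 arrays, each of 1 numbered mouse) they came from the spleens of lethally irradiated wild-type MF1 hosts that had received hematopoietic progenitors transduced with AE9a, a truncated form of the AML1-ETO fusion protein. Mice of both groups were 12 to 16 weeks old. Tissue, transplantation and leukemia therefore change together and cannot be told apart, and the wild-type labels name mice in the plural, so pooling there is possible. In bulk RNA, fewer cells of a type and less RNA per cell cannot be told apart.

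The gate and the arrays were checked first. Kit was at 10.35 to 10.42 log2 in wild-type and at 9.34 to 9.80 in leukemia, and Cd34, another progenitor marker, was 3.60 log2 lower there. Fcgr3, the other gate marker measured, had a difference of 0.78 log2 that did not pass. Leukemia arrays 1, 2 and 3 read 10.29, 8.91 and 7.70 for Fcgr3, where the wild-type range was 8.05 to 8.46. Ly6a, which encodes Sca1, was not analysed here. Of the measured markers of T, B and NK cells (Cd8a, Ms4a1, Ncr1 and Gzma), only Ncr1 reached the 40th percentile of its array, on 1 wild-type array. Marker sums in linear intensity were higher in wild-type for 4 macrophage genes (363 to 536 against 72.3 to 102), 3 mature neutrophil genes (101 to 384 against 67.6 to 71.9) and 4 genes of stroma and endothelium (299 to 385 against 39.6 to 46.4, with Col1a1, Col3a1 and Cdh5 under the 40th percentile on every array). The sum of 3 plasma cell markers was 1260 to 1557 against 968 to 2424, with Xbp1 by far the brightest of them. Jchain, another of them, lay at 4.13, 4.59 and 7.25 log2 in wild-type and at 3.29 to 3.63 in leukemia. It reached the 40th percentile on 1 wild-type array only. The erythroid marker Slc4a1 was at 7.40 to 8.09 log2 in leukemia and under the 40th percentile on every wild-type array. Leukemia replicate 1 stood apart. In a fit with array weights its weight was 0.191, where the others had 0.831 to 2.82, and its Gapdh 3′ minus 5′ difference was 0.31 log2 where the other leukemia arrays had 0.08 and 0.01. In the run records it shares its hybridization date entry with all wild-type arrays, and leukemia replicates 2 and 3 share another. Arrays with the same entry are called 1 fluidics run here. Signal of the 18S ribosomal RNA control at its 5′ end was 3.13 log2 higher in leukemia, most on replicate 1, and the Gapdh 3′ minus 5′ difference 0.23 log2 higher (exact permutation p = 0.1 each, two-sided, the smallest that 3 against 3 allows). The same difference for Actb was 0.03 (exact permutation p = 0.9), or -0.10 without leukemia replicate 1. The part of these measures in the results below was not tested.

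Differences in the synthetase genes were small. Of the 35 members 34 were bright enough to be tested, and 33 of them lay on all 6 arrays at or above the 40th percentile of that array's probe sets, the brightness limit for testing. Only the mitochondrial methionine gene Mars2 was left out as dim, at 3.46 to 3.79 log2 in wild-type and 3.11 to 3.69 in leukemia. In the leukemia cells 3 members were higher and 8 were lower (limma, adjusted p under 0.05), where 16.9% of all 9715 tested genes were higher and 25.2% were lower. That is 8.82% and 23.5% of the tested members, or 32.4% in either direction against 42.1% of all tested genes. No tested member differed by 2-fold, a size that 19.0% of all tested genes passed together with the threshold, and the called members changed by 1.27-fold to 1.89-fold. For 18 of the 34 members (52.9%) the arrays of both groups were fully separated, as for 59.2% of all tested genes. The median change of the members was -0.23 log2 and that of all tested genes -0.09.

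**Figure D1:**
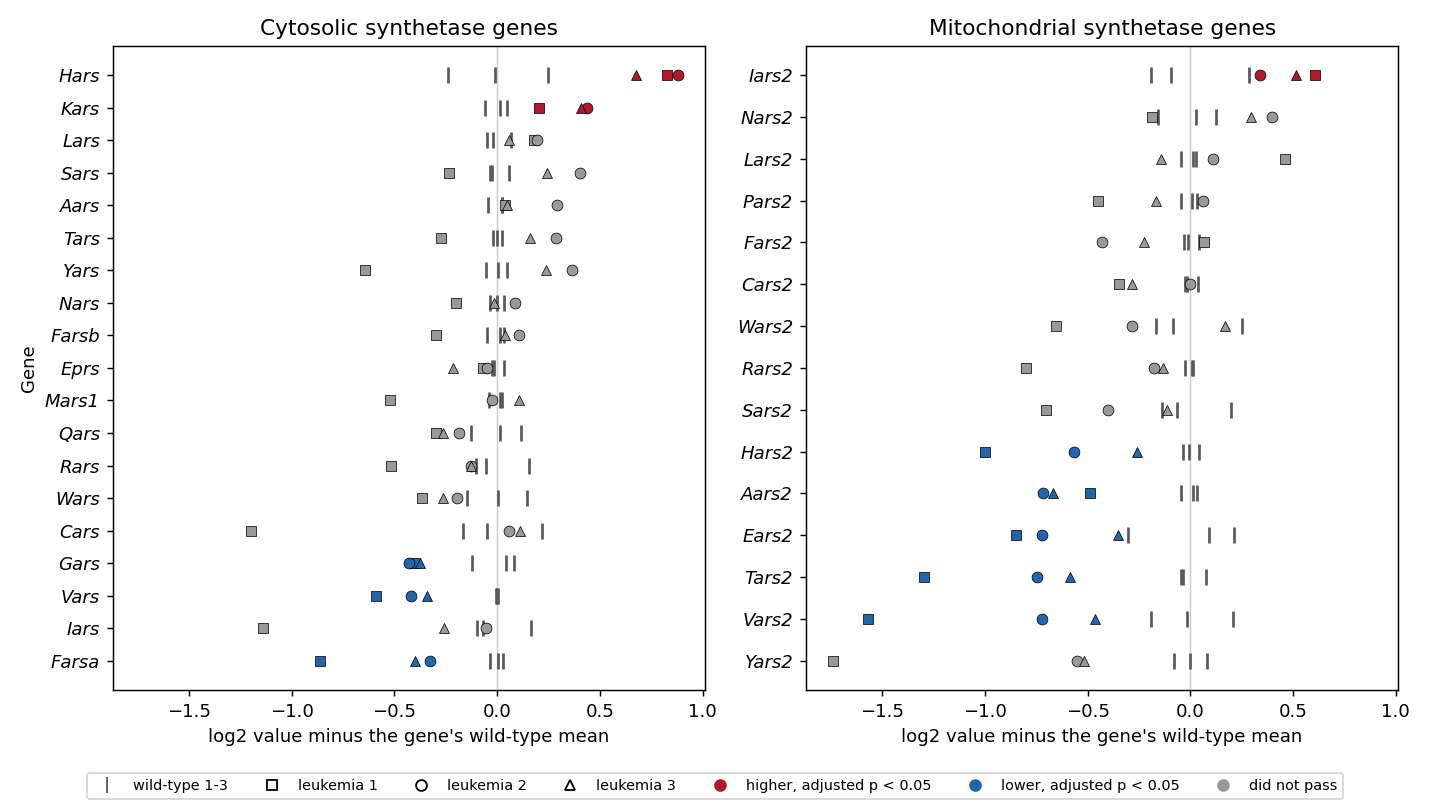
Each row is a tested synthetase gene and the horizontal axis gives its log2 value minus its own wild-type mean, with grey bars for the 3 wild-type arrays and squares, circles and triangles for leukemia arrays 1, 2 and 3. Red marks genes that were higher and blue genes that were lower at adjusted p under 0.05 (limma), and the squares of leukemia replicate 1 are the lowest leukemia points for 26 of the 34 genes.

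Among the mitochondrial enzymes more fell than rose, as over all tested genes. Of 15 tested mitochondrial members 5 fell (Aars2, Tars2, Hars2, Ears2 and Vars2), 1 rose (Iars2) and 9 did not pass, with a median change of -0.37 log2. The shares that fell and rose were 33.3% and 6.67%, against 25.2% and 16.9% of all tested genes. In either direction 40% changed, near the 42.1% of all tested genes. When arrays were centred the median was -0.29 and 4 fell, beside 2070 of all 9715 tested genes. With 1 array left out the number that fell ran from 1 to 6. It was 3, 2 and 1 without wild-type replicates 1, 2 and 3, and 3 without leukemia replicate 2. Over all tested genes 1513 to 2778 fell with 1 array left out, against 2452 with all arrays.

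Aars2, the mitochondrial alanine enzyme, was the only one of these to pass in each of 17 alternatives. It lay at 7.997, 8.07 and 8.05 log2 on wild-type arrays 1, 2 and 3 and at 7.55, 7.33 and 7.37 on leukemia arrays 1, 2 and 3. All leukemia arrays were below all wild-type arrays, and here leukemia replicate 1 was the highest of its group. The change was -0.62 ± 0.13 log2 (SE, limma adjusted p = 0.00782).

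Tars2, which charges threonine in mitochondria, lay at 8.84, 8.85 and 8.96 in wild-type and at 7.59, 8.14 and 8.30 in leukemia. The groups did not overlap, and leukemia replicate 1 was lowest. The change was -0.87 ± 0.19 log2 (SE, limma adjusted p = 0.0111). It was -0.67 once leukemia replicate 1 was dropped and just missed the threshold without wild-type replicate 3 (adjusted p = 0.0511). A dimmer probe set of Tars2 gave -0.23 and did not pass (adjusted p = 0.204 over all probe sets).

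Vars2, the mitochondrial valine enzyme, lay at 6.59, 6.76 and 6.99 in wild-type and at 5.21, 6.06 and 6.31 in leukemia. Leukemia replicate 1 was below the 40th percentile of its array there. The change of -0.92 ± 0.30 log2 (SE, limma adjusted p = 0.0446) became -0.59 when that array was dropped (adjusted p = 0.0345) and was -1.57 in the fluidics run it shares with wild-type. It was lost without any one of the wild-type arrays (adjusted p = 0.0831, 0.114 and 0.145) and without leukemia replicate 2 (0.0583), and in 5 of 16 alternatives in all.

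Ears2, the mitochondrial glutamate enzyme, lay at 6.64, 7.15 and 7.03 in wild-type and at 6.09, 6.22 and 6.59 in leukemia. The highest leukemia array and the lowest wild-type array nearly met. Its change of -0.64 ± 0.21 log2 (SE, limma adjusted p = 0.0446) was lost when leukemia replicate 1 was dropped (-0.54, adjusted p = 0.0799), when wild-type replicate 2 (adjusted p = 0.149) or 3 (0.142) was dropped, and when leukemia replicate 2 was (0.0961). Centring arrays (limma adjusted p = 0.0628), quantile normalization (0.0538), array weights (0.0551) and no filter (0.0538) lost it too, so 8 of 15 alternatives did.

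Yars2, the mitochondrial tyrosine enzyme, had the largest difference of all members but did not pass. It lay at 8.71, 8.63 and 8.79 in wild-type and at 6.97, 8.16 and 8.19 in leukemia, so that leukemia replicate 1 was more than 1 log2 unit below the other leukemia arrays. With it the difference was -0.94 ± 0.32 log2 (SE, limma adjusted p = 0.0548). Dropping that array gave a smaller difference, -0.53, that passed (adjusted p = 0.00578). The larger differences without leukemia replicate 2 or 3, -1.13 and -1.15, passed too (adjusted p = 0.0432 and 0.0374). A dimmer probe set of Yars2 gave -0.46 and did not pass (limma adjusted p = 0.0792 over all probe sets).

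Iars2, the mitochondrial isoleucine enzyme, was the only mitochondrial member that rose. It lay at 7.85, 7.76 and 8.23 in wild-type and at 8.56, 8.29 and 8.46 in leukemia. Its change of 0.49 ± 0.16 log2 (SE, limma adjusted p = 0.0497) was at the threshold and was lost in 10 of 17 alternatives, among them those that dropped wild-type replicate 1 (adjusted p = 0.152) or 2 (0.160), or leukemia replicate 1 (0.0797), 2 (0.0535) or 3 (0.0988). With the fluidics run as a block Iars2 did not pass (0.61, adjusted p = 0.0518) and Lars2, for leucine, did (0.46, adjusted p = 0.0237).

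The remaining mitochondrial members did not pass. Sars2, Rars2 and Wars2, for serine, arginine and tryptophan, had differences of -0.41, -0.37 and -0.26 log2 (limma adjusted p = 0.135, 0.148 and 0.421), or -0.26, -0.15 and -0.06 without leukemia replicate 1. Cars2, Fars2 and Pars2, for cysteine, phenylalanine and proline, had -0.21, -0.20 and -0.18 (limma adjusted p = 0.238, 0.315 and 0.405). Nars2, for asparagine, lay at 7.36, 7.17 and 7.46 in wild-type and at 7.14, 7.73 and 7.63 in leukemia, on both sides of the wild-type range. Lars2, for leucine, lay at 9.23, 9.17 and 9.24 in wild-type and at 9.67, 9.32 and 9.07 in leukemia, again with overlap. Their differences were 0.17 and 0.14 log2 (limma adjusted p = 0.505 and 0.495). Once leukemia replicate 1 was dropped, Fars2 passed as lower (-0.33, adjusted p = 0.0367), while Pars2 was at -0.05 and Nars2 at 0.35.

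Of the 19 cytosolic members, all tested, 2 rose (Hars and Kars), 3 fell (Gars, Vars and Farsa) and 14 did not pass. These shares were 10.5% and 15.8%, below the 16.9% and 25.2% of all tested genes. The median change was -0.11 log2, near that of all tested genes.

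Gars, the glycine enzyme, lay at 10.69, 10.48 and 10.65 in wild-type and at 10.21, 10.18 and 10.23 in leukemia. The leukemia arrays were nearly equal and all below wild-type. The change was -0.40 ± 0.08 log2 (SE, limma adjusted p = 0.00768) and passed in each of 17 alternatives. Vars, the valine enzyme, fell by 0.45 ± 0.09 (SE, adjusted p = 0.00823) and also passed in each of the 17. It was at 10.16, 10.16 and 10.17 in wild-type and at 9.57, 9.74 and 9.82 in leukemia.

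Farsa, the catalytic subunit of the phenylalanine enzyme, fell by 0.53 ± 0.15 log2 (SE, limma adjusted p = 0.0252). Its partner subunit Farsb was at -0.05 (adjusted p = 0.754). The call of Farsa was lost without any one of the wild-type arrays (adjusted p = 0.0830, 0.0714 and 0.0823). The dimmer tested probe sets of Farsa gave 0.15 and -0.03 log2, neither of which passed.

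Kars, the lysine enzyme, lay at 11.09, 10.98 and 11.06 in wild-type and at 11.25, 11.48 and 11.45 in leukemia. All leukemia arrays were higher, leukemia replicate 1 least so. The change was 0.35 ± 0.08 log2 (SE, limma adjusted p = 0.0130), or 0.42 with leukemia replicate 1 dropped (adjusted p = 0.00169), and did not pass within the shared fluidics run (0.20, adjusted p = 0.0514) or without wild-type replicate 2 (0.0546). Lars, the leucine enzyme, lay at 10.41, 10.32 and 10.30 in wild-type and at 10.52, 10.54 and 10.40 in leukemia. The groups overlapped and the difference of 0.14 did not pass (adjusted p = 0.171).

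Hars, the histidine enzyme, showed the largest rise, which held for 1 of its probe sets. On the brighter probe set it lay at 10.23, 9.74 and 9.97 in wild-type and at 10.81, 10.86 and 10.66 in leukemia, a change of 0.80 ± 0.13 log2 (SE, limma adjusted p = 0.00351). On the other it lay at 9.67, 9.49 and 9.66 in wild-type and at 9.23, 9.56 and 9.43 in leukemia, a difference of -0.20 that did not pass (adjusted p = 0.228 over all probe sets). With the mean of both the call was lost (0.30, adjusted p = 0.0703). The direction for Hars thus depends on the probe set.

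The cytosolic members that did not pass held the rest of the complex. Of the 7 measured complex members Kars rose, and Lars and the other 5 did not pass. Iars, Rars and Qars, for isoleucine, arginine and glutamine, were at -0.48, -0.26 and -0.25 log2 (limma adjusted p = 0.190, 0.159 and 0.0583). Mars1, for methionine, and Eprs were at -0.15 and -0.11 (limma adjusted p = 0.487 and 0.348). Iars was at 8.93 on leukemia replicate 1 and at 10.01 and 9.81 on the other leukemia arrays, against 9.97 to 10.23 in wild-type. With leukemia replicate 1 dropped Iars was at -0.16, Rars at -0.13 and Mars1 at 0.04. None of the 3 scaffold genes passed, with -0.01 for Aimp1, -0.03 for Eef1e1 and -0.32 for Aimp2 (limma adjusted p = 0.958, 0.938 and 0.414). Aimp2 was at 9.61 on leukemia replicate 1 against 10.80 and 10.69 on the other leukemia arrays, and its difference was 0.06 without that array. Of the 12 cytosolic members outside the complex 1 rose and 3 fell (8.33% and 25%). Of 18 tested class I enzymes 1 rose and 3 fell (5.56% and 16.7%), and of 16 class II enzymes 2 rose and 5 fell (12.5% and 31.3%), beside 16.9% and 25.2% of all tested genes. Of the remaining members outside the complex, Cars (cysteine) was at -0.34, Nars (asparagine) at -0.04 and Yars (tyrosine) at -0.01 log2 (limma adjusted p = 0.468, 0.716 and 0.968), and Cars was at 0.09 without leukemia replicate 1. Tars (threonine) was at 0.06, Aars (alanine) at 0.13 and Sars (serine) at 0.14 (limma adjusted p = 0.776, 0.354 and 0.519). Wars, the tryptophan enzyme that interferon is known to induce, was at -0.28 (limma adjusted p = 0.113), with differences below 0 on all 4 of its probe sets.

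Leukemia replicate 1 carried much of the spread. Relative to each gene's wild-type mean, the median cytosolic member was at -0.30 log2 on leukemia replicate 1 and at 0.06 and 0.04 on leukemia replicates 2 and 3. The median mitochondrial member was at -0.65, -0.40 and -0.23 on the same arrays, so it was below the wild-type arrays (-0.04 to 0.08) on each. Over all tested genes the medians were -0.10, -0.09 and -0.05, also below the wild-type arrays (-0.02 to 0.04) on each. Medians of the cytosolic initiation and elongation factor genes (-0.21, -0.10 and -0.07) were below their wild-type arrays on each too. So were those of the mitochondrial translation factor genes (-0.33, -0.07 and -0.09). Leukemia replicate 1 was the lowest leukemia array for 76.5% of tested members, against 43.3% of all tested genes. The share was similar for the cytosolic initiation and elongation factor genes (71.4%) and the mitochondrial translation factor genes (78.3%).

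Without leukemia replicate 1 the cytosolic median was 0.04 log2, and 5 cytosolic members were higher and 3 lower, where 48.5% of all tested genes passed, 19.9% as higher. The gains were Sars (0.33), Yars (0.30) and Tars (0.22), the serine, tyrosine and threonine enzymes. In the fluidics run that leukemia replicate 1 shares with wild-type, which sets that array alone against wild-type and takes the spread from the other 5 arrays, so that it is assumed to vary like them, 10 cytosolic members were lower and 1 was higher, where 52.8% of all tested genes passed, 20.9% as higher and 32.0% as lower. Yars and Tars then lay at -0.64 and -0.27, and the lowest were Cars and Iars at -1.20 and -1.14. The mitochondrial median was -0.26 without leukemia replicate 1, with 6 of 15 members lower, where 28.6% of all tested genes were.

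**Figure D2:**
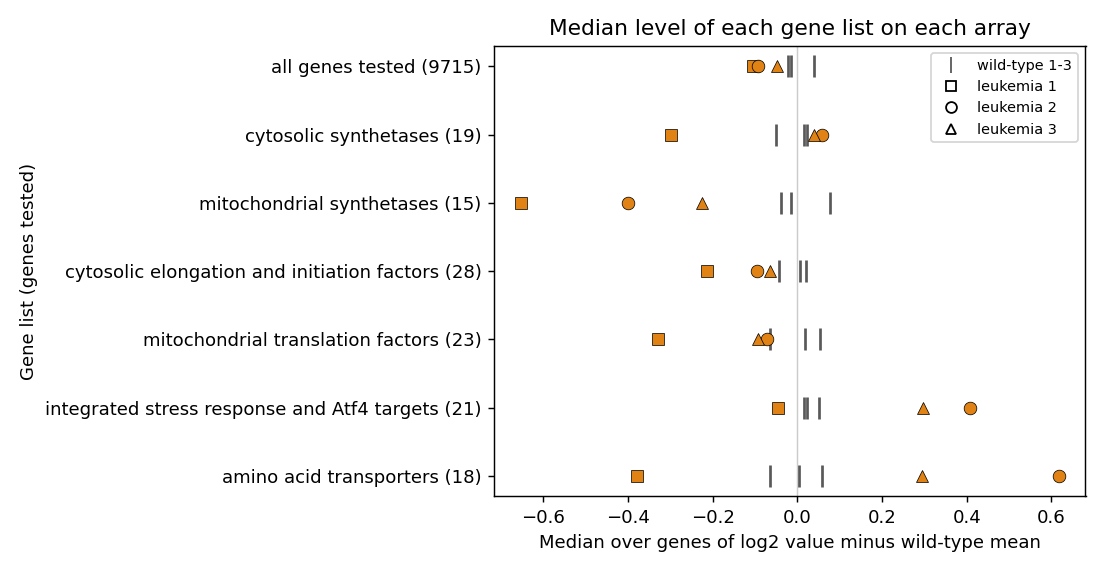
Each row is a gene list and each point an array, placed at the median over the list's tested genes of the log2 value minus the gene's wild-type mean. Mitochondrial synthetases lie below the wild-type bars on all 3 leukemia arrays, as do all tested genes and both lists of translation factors by smaller amounts. Cytosolic synthetases do so on leukemia replicate 1 alone.

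Cytosolic and mitochondrial enzymes for the same amino acid could be set side by side in 16 pairs, among which Eprs and Fars2 recur. Because probe sets differ in brightness, only the change of the within-array difference (cytosolic minus mitochondrial) between the groups was read. It was above 0 in 11 pairs and below 0 in 5, with a median of 0.13 log2. In 6 of the 16 pairs the groups did not overlap, 5 of them above 0. Among single tested genes the groups did not overlap for 59.2%. Each of these 6 pairs gave an exact permutation p of 0.1, two-sided, or 0.267 adjusted over the pairs. As 0.1 is the smallest that 3 against 3 allows, no pair could reach 0.05.

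The clearest separations above 0 were those of Tars and Tars2 (0.93 ± 0.10 log2, SE, n = 3 each, exact permutation p = 0.1), Yars and Yars2 (0.92 ± 0.10, exact permutation p = 0.1) and Aars and Aars2 (0.75 ± 0.15, exact permutation p = 0.1). Relative to wild-type, the Tars difference was shifted by 1.02, 1.03 and 0.75 on leukemia arrays 1, 2 and 3, and the Yars difference by 1.10, 0.91 and 0.76. Leukemia replicate 1 was the lowest leukemia array for Tars, Tars2, Yars and Yars2, but its within-array differences for these pairs were close to or above those of the other leukemia arrays. The Aars value rests on its brightest probe set (0.13), where its other one gave -0.48. The Tars2 and Yars2 values also rest on the brightest probe sets (-0.87 and -0.94), where dimmer ones gave smaller differences (-0.23 and -0.46). Sars and Sars2 gave 0.54 ± 0.17 (exact permutation p = 0.1).

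Hars and Hars2 were the only pair that passed in opposite directions. Hars2, the mitochondrial histidine enzyme, lay at 8.36, 8.28 and 8.31 in wild-type and at 7.32, 7.75 and 8.05 in leukemia, a change of -0.61 ± 0.20 log2 (SE, limma adjusted p = 0.0439). That call was lost without any one of the wild-type arrays (adjusted p = 0.126, 0.108 and 0.120) and without leukemia replicate 2 (0.0762). In all it was lost in 8 of 17 alternatives, among them no filter (limma adjusted p = 0.0516), the mean of probe sets (0.0914) and the replicate block (0.0665). The pair difference changed by 1.40 ± 0.28 (exact permutation p = 0.1). In RefSeq's GRCm38.p6 annotation the gene models of Hars and Hars2 are neighbours that overlap, and dimmer probe sets of both gave smaller differences (-0.20 and -0.15), so the opposite calls rest on 1 probe set per gene. Iars and Iars2 ran the other way (-0.97 ± 0.41, exact permutation p = 0.1), with -1.75 on leukemia replicate 1 against -0.40 and -0.77. A second probe set of Iars gave 0.07 where the brightest gave -0.48.

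**Figure D3:**
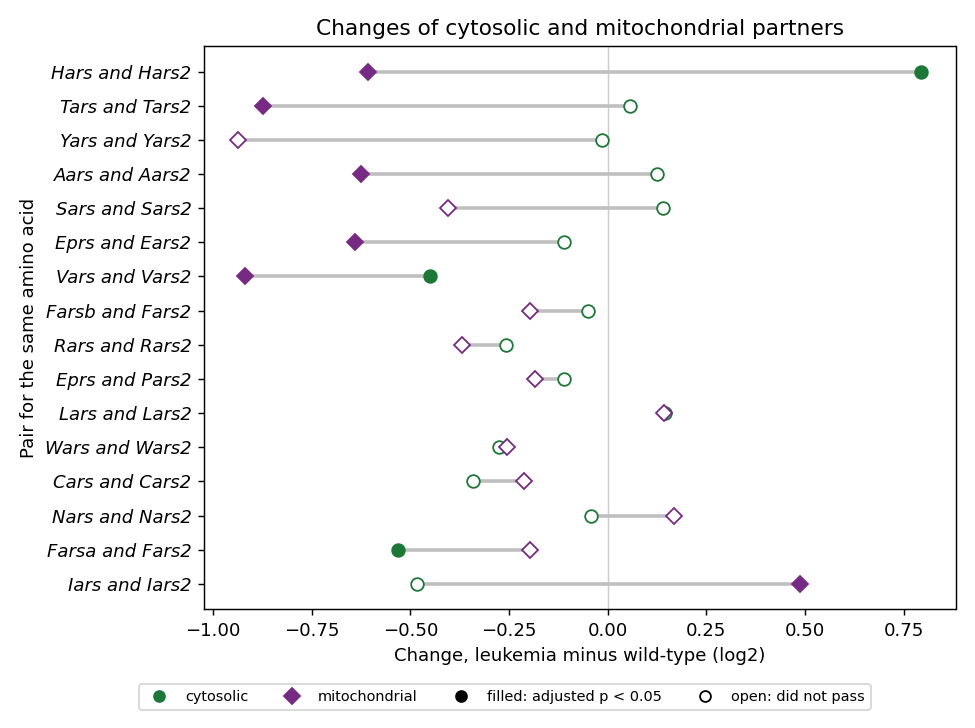
Each row is a cytosolic and mitochondrial pair for the same amino acid, with circles for the cytosolic and diamonds for the mitochondrial change (leukemia minus wild-type, log2) and filled symbols for adjusted p under 0.05 (limma). Rows are ordered by the difference between the members, from Iars and Iars2 (-0.97) to Hars and Hars2 (1.40).

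Probe sets of the same gene often differed in sign. Of 16 members with more than 1 tested probe set 7 had one on the other side of 0 from the brightest, and 0 of these opposite probe sets passed (limma over all probe sets). The 7 included Hars, Farsa and Iars, whose brightest probe sets gave 0.80, -0.53 and -0.48. For Aars, the alanine enzyme, the brightest gave 0.13 and the other -0.48 (adjusted p = 0.354 over all genes and 0.0588 over all probe sets). For Qars, the glutamine enzyme, the brightest gave -0.25 (adjusted p = 0.0583 over all genes) and the other 2 tested gave 0.02 and 0.15.

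Promoters of the members were searched for short motifs because Atf4 is known to bind a composite element that contains TGATGNAA. RefSeq sequences (GRCm38.p6) from 250 bases before to 50 after the start were at hand for 26 members, 12 cytosolic and 14 mitochondrial. On either strand TGATGNAA was found in 5 of the 12 cytosolic promoters (Aars, Gars, Iars, Tars and Yars) and in 0 of the 14 mitochondrial ones, where 3.97% of all promoters hold it. The stretches before the start are shown for the members with a match there and for Asns, the asparagine synthetase gene, a textbook Atf4 target. Capitals mark the match, which in Aars, Gars and Tars lies on the strand opposite to the gene. Each sequence is written along the gene's strand, 5′ to 3′.
Aars (chr8:111033704-111033763, + strand): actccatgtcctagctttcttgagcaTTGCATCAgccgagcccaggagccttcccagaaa
Gars (chr6:55037945-55038000, + strand): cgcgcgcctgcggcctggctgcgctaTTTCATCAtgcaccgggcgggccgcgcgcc
Tars (chr15:11399659-11399699, - strand): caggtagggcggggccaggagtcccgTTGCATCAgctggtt
Asns (chr6:7693210-7693258, - strand): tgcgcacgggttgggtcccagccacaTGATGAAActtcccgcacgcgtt

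The match began 112 bases before the start in Aars, 30 in Gars, 15 in Tars and 23 in Asns, and lay after the start in Iars and Yars, as did a second match in Aars. Of the members that hold it Gars fell by 0.40, while Aars, Tars, Yars and Iars did not pass (0.13, 0.06, -0.01 and -0.48 log2), and Asns rose by 2.08. The E-box CACGTG, which MYC family proteins bind, was in 4 cytosolic promoters (Aars, Farsb, Iars and Tars) and 1 mitochondrial one (Ears2), where 7.15% of all promoters hold it. It shares no base with TGATGNAA in these promoters.

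GCATGCGC, the core of the element bound by the respiratory gene regulator NRF1, was in 3 of 14 mitochondrial promoters (Vars2, Rars2 and Wars2) and 0 of 12 cytosolic ones, where 2.71% of all promoters hold it. Vars2 is shown because it had the largest fall among mitochondrial members that passed, and Rars2 for comparison. Capitals mark the match, and the last 8 bases of the Vars2 stretch are a second copy.
Vars2 (chr17:35667605-35667664, - strand): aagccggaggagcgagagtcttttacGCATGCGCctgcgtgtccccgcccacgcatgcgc
Rars2 (chr4:34614880-34614939, + strand): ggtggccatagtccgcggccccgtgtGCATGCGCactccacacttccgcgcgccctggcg

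Of these Vars2 fell by 0.92, and Rars2 and Wars2 did not pass (-0.37 and -0.26 log2). CCGGAAGT, an ETS site, was in 3 members (Farsa, Mars1 and Rars2), and AAGATGGC, a YY1 site, in 4 (Aars2, Farsa, Wars2 and Yars2), against 3.89% and 2.75% of all promoters. A match is a description of the sequence and not a measured binding site.

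The amino acid response around the synthetases was mixed. Of 21 tested genes of the integrated stress response and Atf4 target list 6 rose and 3 fell, 28.6% and 14.3% beside 16.9% and 25.2% of all tested genes, with a median of 0.18 log2. Asns lay at 10.58, 9.81 and 10.34 in wild-type and at 12.33, 12.01 and 12.62 in leukemia, and rose by 2.08 ± 0.22 log2 (SE, limma adjusted p = 4.97e-04). Ero1a, an oxidase of the endoplasmic reticulum, rose by 1.30 and Psph, the last enzyme of serine synthesis, rose by 0.95. Psat1 (0.67), Ddit3 (0.80) and Aldh18a1 (0.94) also rose and were named after their values were seen. So was Phgdh, another serine synthesis gene of the list, which did not pass (-1.93, limma adjusted p = 0.133). It lay at 11.77 to 11.94 log2 in wild-type and at 11.22, 11.07 and 7.52 in leukemia. The transcription factor genes Cebpb and Jdp2 fell, from 8.62 to 9.44 and 6.45 to 7.28 log2 in wild-type to 5.02 to 5.66 and 3.52 to 4.16 in leukemia. These leukemia values are under the 40th percentile on all arrays for Jdp2 and on arrays 1 and 3 for Cebpb, so the size of either fall is not fixed. Shmt2, the mitochondrial serine hydroxymethyltransferase, fell by 0.36.

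Atf4 itself lay at 10.93, 10.93 and 10.81 in wild-type and at 10.66, 11.07 and 11.21 in leukemia and did not pass (0.09, limma adjusted p = 0.641). Without leukemia replicate 1 it was at 0.25 and passed (limma adjusted p = 0.0286). In that fit 11 genes of the list were higher, where 19.9% of all tested genes were. Without leukemia replicate 3, 5 were lower, beside 2411 of all 9715 tested genes.

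Amino acid transporters included larger changes. Of 18 tested 6 rose and 2 fell, 33.3% and 11.1% beside the same background, with a median of 0.13 log2. Slc7a8, a transporter of large neutral amino acids, lay at 6.02, 6.14 and 5.97 in wild-type and at 10.54, 10.26 and 9.89 in leukemia, and rose by 4.19 ± 0.18 log2 (SE, limma adjusted p = 1.03e-05). Its heavy chain partner Slc3a2 rose by 1.32 and the glycine transporter gene Slc6a9 by 1.81. Slc36a1, a proton-coupled amino acid transporter of lysosomes, fell by 1.56, and Slc43a2 fell by 0.71, a call lost without leukemia replicate 1 (-0.59, adjusted p = 0.0796). Without leukemia replicate 2, 5 transporters were lower, beside 2261 of all 9715 tested genes.

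**Figure D4:**
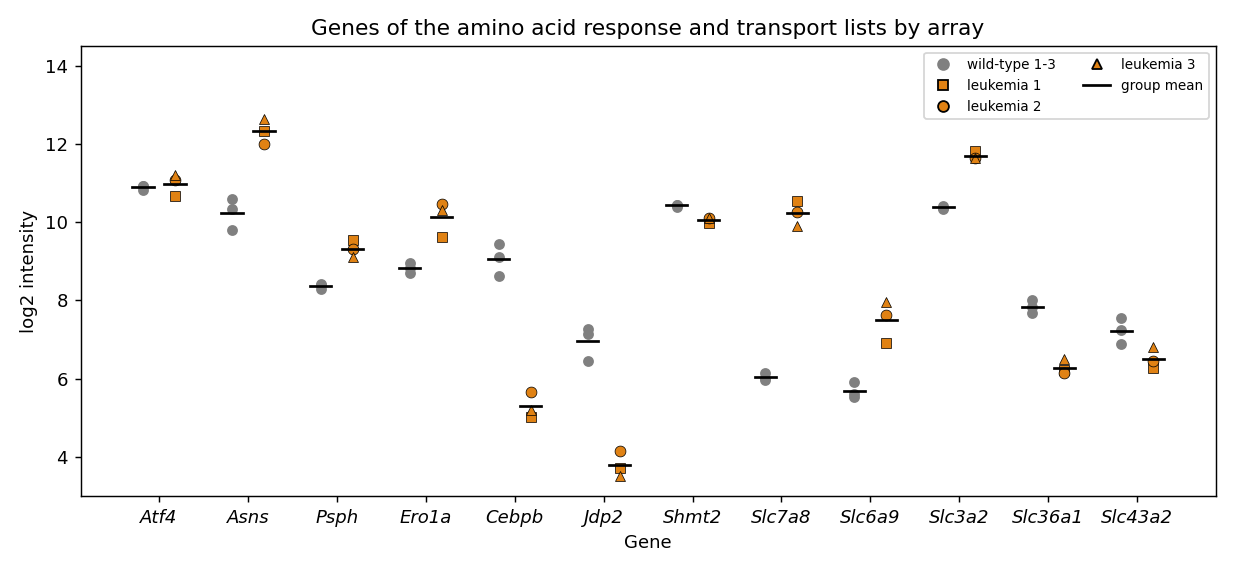
For each gene of the amino acid response and transport lists named by the stated rule, log2 intensity is plotted by array, with grey circles for wild-type, orange symbols for leukemia arrays 1, 2 and 3, and black lines for group means. Levels of different genes are not comparable, and Asns and Slc7a8 show separate groups (changes of 2.08 and 4.19) while the Atf4 groups overlap.

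The factors of translation fell at shares near or below the background. Of 28 tested cytosolic initiation and elongation factor genes 7 fell and 0 rose, 25% and 0% beside 25.2% and 16.9% of all tested genes, with a median of -0.17 log2. Gspt1, which encodes a release factor, fell by 0.97, Gcn1, the activator of the kinase that senses uncharged tRNA, fell by 0.83 and Eif3b fell by 0.40. When arrays were centred, 4 were lower and 3 higher, beside 2070 and 1914 of all 9715 tested genes. Without leukemia replicate 1, 2 were higher, where 19.9% of all tested genes were. Of 23 tested mitochondrial translation factor genes 4 fell and 0 rose, 17.4% against the 25.2% background, with a median of -0.18. Tufm, the mitochondrial elongation factor that carries charged tRNA to the ribosome, fell by 1.08, Mto1, a tRNA-modifying enzyme, fell by 0.82 and Gfm2 fell by 0.78, or by 0.74, 0.48 and 0.52 without leukemia replicate 1. With any one of the wild-type arrays left out 0 mitochondrial factors were lower. Of all 9715 tested genes 1725, 1636 and 1513 were lower without wild-type replicates 1, 2 and 3. In the run of leukemia replicate 1, which sets that array alone against wild-type, Tufm, Mto1 and Gfm2 were at -1.77, -1.50 and -1.28.

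Relatives of the synthetases and tRNA handling genes moved both ways. Of 13 tested 4 rose and 2 fell, 30.8% and 15.4% beside 16.9% and 25.2% of all tested genes. Pstk, the kinase of the selenocysteine tRNA pathway, rose by 1.18 ± 0.14 log2 (SE, limma adjusted p = 6.30e-04) and Prorsd1, an editing domain homologue of prolyl-tRNA synthetase, rose by 0.85 ± 0.14 (SE, adjusted p = 0.00298). Slfn2 rose by 2.12, by 1.11 in the run of leukemia replicate 1 alone. Aarsd1, an editing domain homologue of the alanine enzyme, fell by 0.58 and Elac2, which trims the 3′ end of tRNA precursors, fell by 0.84. Without wild-type replicate 1 the number lower was 1, beside 1725 of all 9715 tested genes.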

How the data were processed

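Labelled RNA of 6 samples was hybridised to 1 array each. The deposited intensity values, 1 linear value per probe set for 28821 probe sets (3.31 to 18869), were made by the authors with RMA, per the submitters' processing notes; its version and any further filter are not given in the sources used here. Log2 was taken with no pseudocount, and median array intensity was 71.6 to 79.9. The number of arrays limits the precision.

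Probe sets were named from the platform annotation: 23750 had 1 symbol, 677 several and 4355 none, and 39 were controls; 23674 matched RefSeq (GRCm38.p6). Each of 13146 genes was represented by its probe set of highest mean. Genes whose probe set reached its array's 40th percentile on 3 or more arrays (9715) were fitted by lmFit and trended eBayes (limma 3.58.1, R 4.3.3), with Benjamini-Hochberg adjustment over all of them and a threshold of 0.05. Pair differences were compared by exact permutation tests, two-sided. On simulated data of 9715 genes, changes of 0.5, 1 and 2 log2 were placed in 66, 67 and 67 genes. The fit recovered 10.6%, 62.7% and 89.6% of them. Both groups had the same spread there, whereas the median SD of the real data was 0.11 log2 in wild-type and 0.22 in leukemia. Far fewer genes changed there than the 4089 called in the real data, so these shares do not measure the sensitivity of the main fit.

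Wild-type samples are not stated to be separate mice, so p-values measure the spread between these samples. Members and lists were chosen with earlier results of these data known. Every member is named; the 5 largest rises and falls are given by array, as is any pair with opposite calls, and context lists by up to 3 genes per direction plus Atf4, Asns and the scaffold genes. Alternatives covered the filter, probe set choice, scaling, 16 added before log2, variance moderation, the replicate and fluidics run blocks and leaving out each array.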

Additional observations from a re-analysis of the deposited data

Results flagged for a closer look

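The array's control probe set for the 5′ end of 18S ribosomal RNA, which no comparison of genes used, was 3.13 log2 higher in leukemia than in wild-type (exact permutation p = 0.1, two-sided, the smallest that 3 against 3 allows). It lay at 9.41, 8.18 and 7.77 in wild-type and at 12.35, 11.25 and 11.14 in leukemia, and its part in the synthetase results was not tested.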

How the results depend on the processing

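Of the 11 synthetase calls 3 (Aars2, Gars and Vars) stood on the same side of the threshold in all 17 alternatives, and of the 23 members that did not pass 9 did in each one run (16 for Nars2 and Wars2, 17 for the others). Directions that turned with a call on at least 1 side were those of Hars (-0.20) and Farsa (0.15) with probe sets without shared endings, the same values as on those single probe sets (fits per probe set were chosen after seeing the data), of Tars (-0.27) in the fluidics run block, and of Yars, which ranged from -0.20 to 0.30 with 1 array left out. Signs of members without a call also changed: Aars was at -0.18 with the mean of probe sets and -0.48 without shared endings, Farsb at 0.21 without shared endings, Sars, Nars2 and Fars2 at -0.23, -0.19 and 0.07 in the run block, and Cars, Mars1, Nars and Lars2 at 0.09, 0.04, 0.04 and -0.02 without leukemia replicate 1. Cytosolic members higher (2) came to 1 with the mean of probe sets, 1 without shared endings, 1 in the run block and 1 to 5 with 1 array left out; those lower (3) came to 10 in the run block. Mitochondrial members higher (1) came to 0 with no filter, with the mean of probe sets and with array weights, and 0 to 1 with 1 array left out. Those lower (5) came to 2 with no filter, 3 with a 60th percentile filter, 8 in the run block and 1 to 6 with 1 array left out. The mitochondrial median (-0.37) was -0.65 in the run block. Over all tested genes 1513 to 2778 were lower with 1 array left out, against 2452. The causes were not tested. Centring arrays gave 1914 higher and 2070 lower, against 1637 and 2452.

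With the replicate number as a block 2 cytosolic members were higher and 3 lower, 0 mitochondrial members were higher and 4 lower, and 1445 of all genes were higher and 2120 lower. Same-numbered samples deviated from their group means with correlations of -0.07, 0.05 and 0.03. Those of differently numbered samples ran from -0.12 to 0.11. With 3 samples per group these values cannot show whether same-numbered samples share more than a number.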
